A study of Rattus norvegicus with 16 samples.

Results

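The enzymes of glycolysis, the enzymes and kinases that decide the fate of pyruvate, and the carriers of glucose and lactate were examined in the distal sciatic nerve after injury. The list held 34 genes named by symbol, and a gene was followed where a probe set of the array carried its symbol alone. This left 28 of the 34 genes, out of 18166 genes measured in all, each with 1 probe set. Tpi1, Gapdh, Eno1 and Pkm, 4 further genes of the list, were found only on probe sets shared with other symbols and were not used, and Hk1 and Pgam1, the other 2, were not analysed here.

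Glycolysis splits glucose into pyruvate in the cytosol and yields a little ATP without oxygen. Pyruvate then either enters mitochondria, where the pyruvate dehydrogenase complex passes it to the tricarboxylic acid cycle, or is reduced to lactate by lactate dehydrogenase. Lactate crosses membranes through monocarboxylate transporters. In rodent nerve, Schwann cells are known for passing lactate to the axons they wrap, and many steps of the pathway have several isoforms that differ in regulation and in the tissues that use them.

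The nerves came from male Sprague Dawley rats aged 6 weeks, in 4 groups of 4 arrays each, with 1 biological replicate per array. In the injured groups a segment of 1 sciatic nerve had been removed, the distal end had been tucked away so that axons would not regrow into it, and the nerve beyond the cut was collected at 3 or 7 days post injury (DPI). In the contralateral groups the opposite, uninjured sciatic nerve of such animals was collected at 3 or 7 DPI, so these controls come from operated rats that had the same anaesthesia and analgesics (ketoprofen or meloxicam, and buprenorphine) and not from intact ones. The labels call the arrays biological replicates and do not say which injured and contralateral nerves came from 1 animal. Values are log2 intensities after RMA, a method that corrects background and gives the probe intensities of all arrays the same distribution. It then summarises the probes of a probe set, and the array medians of the resulting log2 values ran from 6.27 to 6.40. A value of 1 on this scale is a 2-fold step, and levels of different genes cannot be set against each other.

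The arrays of 1 group correlated at 0.982 to 0.989. As a check of the tissue, 10 of 11 myelin genes were lower in the injured nerves on both days, all 15 macrophage and monocyte markers were higher on both days, and all 10 cell division genes were higher on both days. Of 7 Schwann cell genes, 5 were lower and 0 higher at 3 DPI (median change -0.77). At 7 DPI, 3 of them were lower and 1 higher (median change -0.13). The mean of the myelin list lay at 9.10 to 9.45 in injured and 11.60 to 11.82 in contralateral nerves at 3 DPI, and at 7.92 to 8.29 in injured and 11.36 to 11.62 in contralateral nerves at 7 DPI. The mean of the macrophage list lay at 9.79 to 10.01 in injured and 7.92 to 8.68 in contralateral nerves at 3 DPI, and at 9.19 to 9.85 in injured and 8.40 to 8.80 in contralateral nerves at 7 DPI. Some arrays stood apart. In replicate 1 of the injured 7 DPI nerves the mean of 9 skeletal muscle genes was 8.30, against 6.03 to 6.88 in the other arrays. The mean of 12 adipocyte genes was 6.79 to 7.47 in the injured 7 DPI nerves, against 8.33, 8.20, 7.92 and 7.35 in the contralateral 7 DPI nerves. In whole nerve, fewer cells of a type and less RNA per cell cannot be told apart, and the part of these markers in the results below was not tested except where a value is given.

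The first comparison asked which of the 28 genes differed between injured and contralateral nerve at 3 DPI. A gene passed the test where the adjusted p of the limma fit over all 18166 genes was under 0.05. Of the 28 genes, 11 were higher in the injured nerves (39.3%), 6 were lower (21.4%) and 11 did not pass. Over all genes tested, 18.8% were higher and 14.7% lower. Both shares of glycolysis genes lie above those of all genes, and the median size of the change, regardless of sign, was 0.36 for the 28 genes and 0.17 for all genes. Their median signed change was 0.10, against -0.01 for all genes, so the changes went both ways. At 7 DPI, 8 of the 28 were higher in the injured nerves (28.6%), 7 were lower (25.0%) and 13 did not pass, where 19.1% of all genes were higher and 13.0% lower. The median signed change at 7 DPI was -0.04, and the median size of the change was 0.32, against 0.17 for all genes. No detection call was used, so the shares and medians of all genes may include many genes at background. Shares over genes of a like level were not taken, so the part of expression level in these excesses was not tested.

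Genes that passed on both days moved in the same direction on both. There were 8 genes higher on both days, 6 lower on both days and 0 that passed in opposite directions. Pfkfb3, Pdk4 and Slc2a3 passed at 3 DPI alone, Slc16a1 passed at 7 DPI alone, and 10 genes passed on neither day. With a change of at least 2-fold added to the rule, 1 gene was higher and 3 were lower at 3 DPI (3.25% and 2.55% of all genes), and 1 was higher and 3 lower at 7 DPI (2.48% and 2.17% of all genes). On both days these were Pfkfb4 on the higher side and Aldoc, Pfkm and Ldhb on the lower side.

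**Figure D1:**
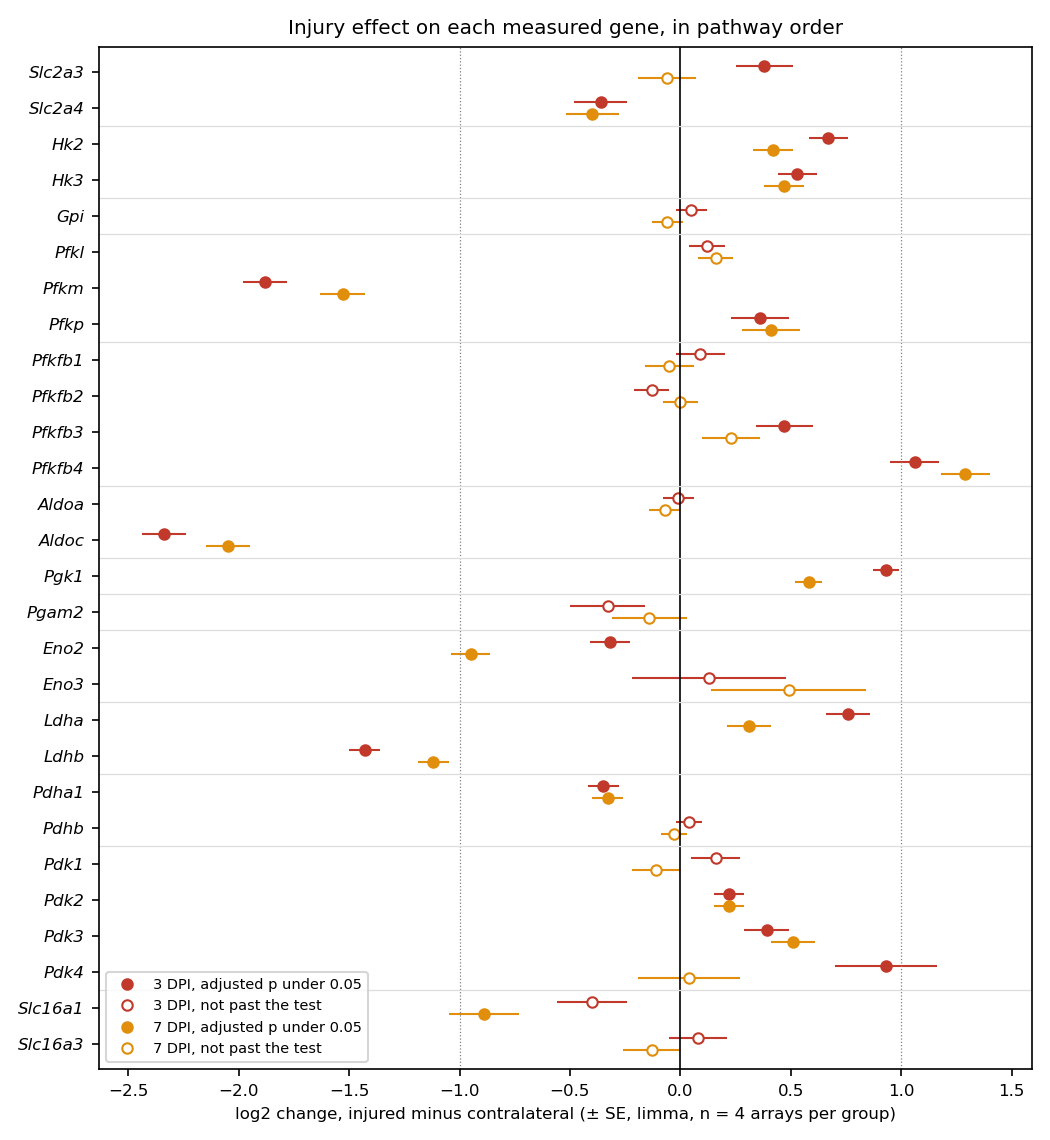
Log2 change of the 28 measured genes, injured minus contralateral, at 3 DPI (red) and 7 DPI (orange), in the order of the pathway from glucose uptake at the top to lactate transport at the bottom. Points are limma estimates with their SE (n = 4 arrays per group), filled where the adjusted p is under 0.05, and dotted lines mark 2-fold changes. Aldoc, Pfkm and Ldhb lie left of the lower line and Pfkfb4 right of the upper line on both days.

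The promoters of these 4 genes, and that of Ldha as the partner of Ldhb, are shown because they belong to members that moved apart within 1 pathway. They were read from RefSeq on the rat build GRCr8, where 25 of the 28 genes had a window of 300 bases (27 windows, since Aldoa had 3) from 250 bases before to 50 bases after the transcription start. The letters searched, on both strands, were ACGTG and GCGTG, the core of the element that the hypoxia-inducible factors bind. ACGTG is also contained in the palindrome CACGTG, the E box that MYC and USF factors bind, and there it counts on both strands. The 250 bases before the start are printed on the strand of the gene, with each match in capitals.
Aldoc, chr10:63715294-63715543 (plus strand): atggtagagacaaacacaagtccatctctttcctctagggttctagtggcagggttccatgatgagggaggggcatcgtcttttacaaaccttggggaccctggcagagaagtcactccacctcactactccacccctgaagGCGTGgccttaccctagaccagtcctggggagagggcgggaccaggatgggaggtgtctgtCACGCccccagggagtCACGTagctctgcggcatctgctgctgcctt
Pfkm, chr7:131113849-131114098 (plus strand): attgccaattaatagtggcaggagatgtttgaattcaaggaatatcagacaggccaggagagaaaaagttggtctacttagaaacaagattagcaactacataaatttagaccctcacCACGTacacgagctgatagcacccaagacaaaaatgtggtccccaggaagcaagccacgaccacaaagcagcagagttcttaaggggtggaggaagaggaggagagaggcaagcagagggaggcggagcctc
Ldhb, chr4:177177409-177177658 (minus strand): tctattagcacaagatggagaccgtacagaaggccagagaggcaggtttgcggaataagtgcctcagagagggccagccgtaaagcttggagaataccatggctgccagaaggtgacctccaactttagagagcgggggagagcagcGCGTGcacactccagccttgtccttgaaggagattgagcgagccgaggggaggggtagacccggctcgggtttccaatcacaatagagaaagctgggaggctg
Pfkfb4, chr8:118525916-118526165 (plus strand): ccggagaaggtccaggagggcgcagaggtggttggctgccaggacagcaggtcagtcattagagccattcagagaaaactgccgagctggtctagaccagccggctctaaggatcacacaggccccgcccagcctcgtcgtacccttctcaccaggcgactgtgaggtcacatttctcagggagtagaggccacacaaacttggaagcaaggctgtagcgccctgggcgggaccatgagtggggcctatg
Ldha, chr1:106507842-106508091 (plus strand): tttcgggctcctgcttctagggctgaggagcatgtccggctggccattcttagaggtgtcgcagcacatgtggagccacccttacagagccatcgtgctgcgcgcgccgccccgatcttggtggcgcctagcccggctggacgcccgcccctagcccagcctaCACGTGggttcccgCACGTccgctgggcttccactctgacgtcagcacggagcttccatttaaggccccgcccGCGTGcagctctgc
The window of Ldha held 6 matches, of which 4 lie wholly in the bases shown and 2 form the E box that begins 87 bases before the start. Aldoc held 3 matches, Ldhb 1, Pfkm 1 and Pfkfb4 0. Partners of Aldoc and Pfkm are not shown, and windows not shown also held several matches. Pdk3, higher on both days, held 5, and Pdhb, which passed on neither day, held 5. Pdk1, which passed on neither day, and Slc16a1, which fell at 7 DPI, held 4 each. Over all windows of glycolysis genes, 17 of 27 held at least 1 match (63.0%), against 13937 of 33469 windows of all genes (41.6%). ACGTG alone was in 48.1% of the members' windows and 19.3% of all windows, GCGTG in 37.0% and 29.7%, and CACGTG in 18.5% and 6.42%. A match was found in 5 of 7 windows of genes higher on both days in 5 of 5 windows of genes lower on both days, and in 7 of 15 windows of the other members (46.7%). CACGTG was in 2 of 7 windows of genes higher on both days, 0 of 5 of genes lower on both days and 3 of 15 of the others. With so few windows these counts are a description. A match is a run of letters and not a measured binding site.

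Aldolase splits the sugar bisphosphate into trioses, and Aldoc is the form best known from brain. Aldoc showed the strongest change of the 28 genes on both days. At 3 DPI it was 7.21, 7.13, 7.06 and 6.77 in the injured nerves, against 9.31, 9.50, 9.34 and 9.39 in the contralateral nerves. At 7 DPI it was 6.75, 6.85, 6.91 and 6.60 in the injured nerves, against 8.73, 8.90, 8.74 and 8.93 in the contralateral nerves. Every injured array lay below every contralateral array by more than 1 log2 unit. Aldoc fell by 2.34 (SE 0.10, 80.3% less, adjusted p = 1.7e-11) at 3 DPI and fell by 2.05 (SE 0.10, 75.8% less, adjusted p = 9.3e-11) at 7 DPI. Aldoa, the form of muscle and most other tissues, was 10.14, 10.11, 10.19 and 10.14 in injured against 10.13, 10.10, 10.23 and 10.15 in contralateral nerves at 3 DPI, and 9.89 to 10.06 in injured against 9.90 to 10.21 in contralateral nerves at 7 DPI. Its groups overlapped on both days, with changes of -0.01 (95% interval -0.16 to 0.15) and -0.07 (-0.23 to 0.08).

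Phosphofructokinase commits sugar to glycolysis and is built from muscle-type (Pfkm), liver-type (Pfkl) and platelet-type (Pfkp) subunits. Pfkm was 7.26, 7.28, 7.24 and 7.31 in injured nerves at 3 DPI, against 8.95, 9.20, 9.39 and 9.06 in contralateral nerves. At 7 DPI it was 7.55, 7.32, 7.17 and 7.29 in injured nerves, against 8.88, 9.02, 8.69 and 8.84 in contralateral nerves. The groups did not overlap on either day, and the highest injured array at 7 DPI was replicate 1, the array with the high skeletal muscle genes. Pfkm fell by 1.88 (SE 0.10, 72.8% less, adjusted p = 2.7e-10) at 3 DPI and fell by 1.53 (SE 0.10, 65.3% less, adjusted p = 4.7e-09) at 7 DPI, and without that array the 7 DPI change was -1.60. Pfkl was 7.57, 7.54, 7.37 and 7.47 in injured against 7.46, 7.34, 7.43 and 7.24 in contralateral nerves at 3 DPI, and 7.55, 7.53, 7.42 and 7.30 in injured against 7.34, 7.38, 7.23 and 7.20 in contralateral nerves at 7 DPI. Its groups overlapped and it did not pass on either day, with differences of 0.12 (95% interval -0.04 to 0.28) and 0.16 (0.00 to 0.32).

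Pfkp was 6.97, 7.54, 7.29 and 7.54 in injured nerves at 3 DPI, against 7.05, 6.97, 6.91 and 6.95 in contralateral nerves, and 7.76, 7.72, 7.16 and 7.62 in injured nerves at 7 DPI, against 7.04, 7.25, 7.07 and 7.28 in contralateral nerves. On each day 1 injured array lay within the contralateral range. Pfkp rose by 0.36 (SE 0.13, adjusted p = 0.048) at 3 DPI and by 0.41 (SE 0.13, adjusted p = 0.028) at 7 DPI. The 3 DPI call was lost in 19 of the 26 alternatives, among them leaving out any 1 array of the day other than injured replicate 1 (adjusted p 0.059 to 0.15). The 7 DPI call was lost in 7, among them leaving out contralateral replicate 1 or 3 or injured replicate 1, 2 or 4 of the day (adjusted p 0.063 to 0.09).

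The bifunctional enzymes of the Pfkfb family make and break the sugar phosphate that activates phosphofructokinase. Pfkfb4 was the gene with the largest increase. It was 8.27, 8.36, 7.90 and 8.29 in injured nerves at 3 DPI, against 6.94, 7.17, 7.28 and 7.19 in contralateral nerves, and 8.18, 8.40, 8.12 and 8.37 in injured nerves at 7 DPI, against 7.12, 7.09, 6.76 and 6.94 in contralateral nerves. All injured arrays lay above all contralateral arrays of the day. Pfkfb4 rose by 1.06 (SE 0.11, 109% more, adjusted p = 1.1e-06) at 3 DPI and by 1.29 (SE 0.11, 144% more, adjusted p = 1.6e-07) at 7 DPI. Pfkfb3, the form that most favours the activator, averaged 7.84 ± 0.25 in injured and 7.36 ± 0.28 in contralateral nerves at 3 DPI (SD, n = 4 each) and rose by 0.47 (SE 0.13, adjusted p = 0.0089). At 7 DPI its difference was 0.23 (SE 0.13, adjusted p = 0.22). The Pfkfb3 groups overlapped at 3 DPI and were narrowly apart at 7 DPI, with 7.71 as the lowest injured and 7.70 as the highest contralateral value. It passed at 7 DPI with the replicate block (0.23, adjusted p = 0.045) and with the contralateral arrays pooled (0.31, adjusted p = 0.045). Pfkfb1 and Pfkfb2 did not pass on either day, with differences from -0.13 to 0.09.

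**Figure D2:**
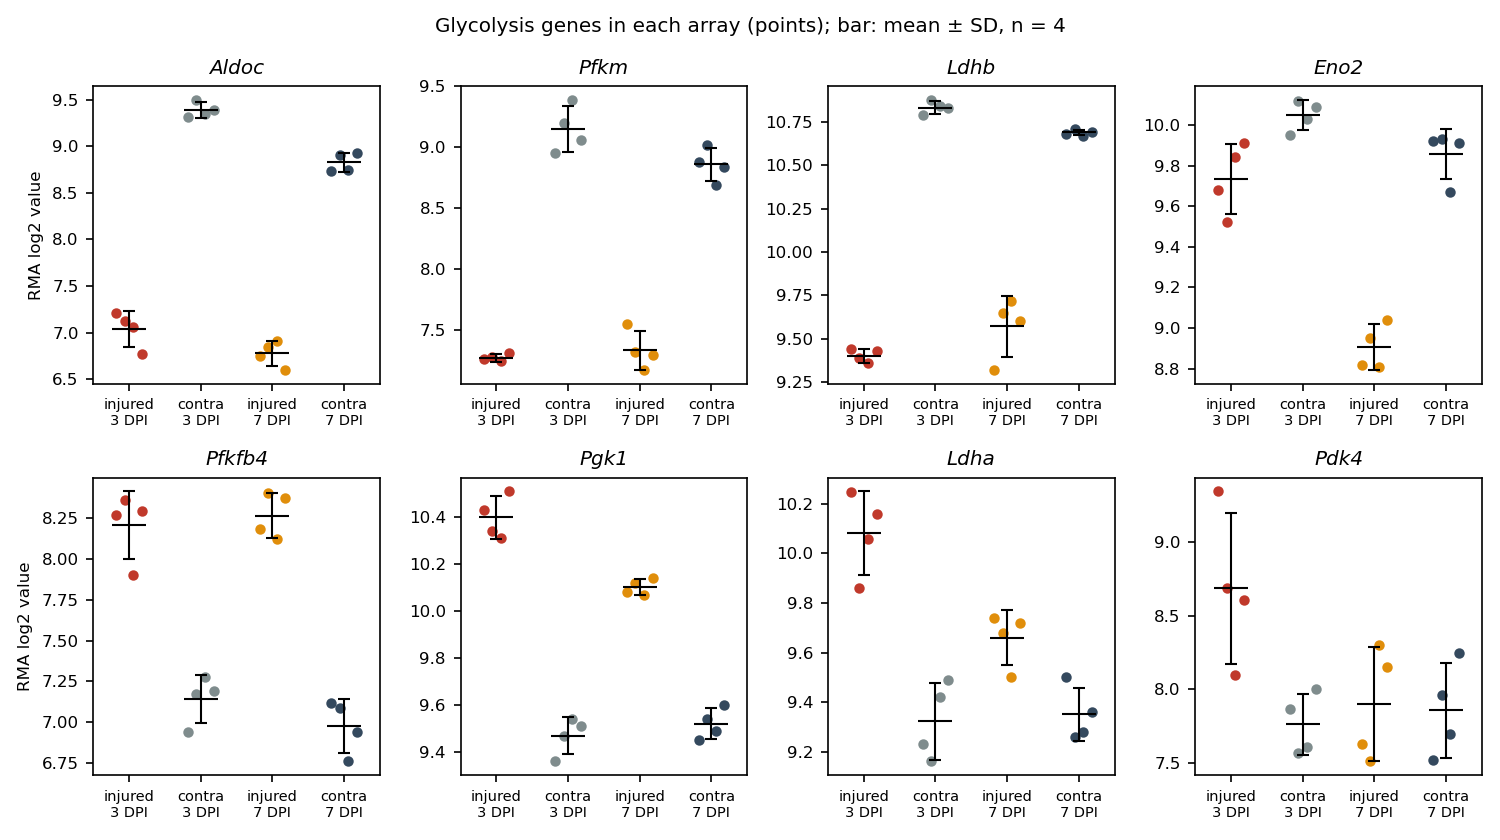
RMA log2 values of 8 genes in each of the 16 arrays (points), by group, with the mean and SD (n = 4 arrays per group); each panel has its own axis, which does not start at 0. In Aldoc, Pfkm and Ldhb the injured arrays of both days lie below all contralateral arrays, in Pfkfb4 and Pgk1 they lie above them, and in Pdk4 only the injured 3 DPI group stands above its contralateral group.

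Glucose enters through the carriers of the Slc2a family and is trapped by hexokinase. Hk2, the hexokinase that growth signals and insulin induce, averaged 7.85 ± 0.19 in injured and 7.18 ± 0.11 in contralateral nerves at 3 DPI, and 7.77 ± 0.13 in injured and 7.35 ± 0.06 in contralateral nerves at 7 DPI (SD, n = 4 each). It rose by 0.67 (SE 0.09, adjusted p = 2.2e-05) and 0.42 (SE 0.09, adjusted p = 0.0019), with no overlap of arrays on either day. Hk3, a hexokinase of white blood cells, rose by 0.53 (SE 0.09, adjusted p = 0.00016) and 0.47 (SE 0.09, adjusted p = 0.00063), also without overlap. Its values were low, at 6.25 to 6.60 in injured and 5.86 to 5.96 in contralateral nerves at 3 DPI. At 7 DPI they were 6.30 to 6.46 in injured and 5.69 to 6.02 in contralateral nerves, where the array medians ran from 6.27 to 6.40. All 15 macrophage markers were higher in the injured nerves, and the part of those cells in the Hk3 change was not tested.

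Slc2a3 encodes GLUT3, the carrier best known from neurons, and Slc2a4 encodes GLUT4, the insulin-responsive carrier of muscle and fat. Slc2a3 was 7.35, 7.59, 7.40 and 7.67 in injured nerves at 3 DPI, against 7.23, 7.09, 6.82 and 7.37 in contralateral nerves, and 7.68, 7.50, 7.20 and 7.53 in injured nerves at 7 DPI, against 7.36, 7.61, 7.39 and 7.77 in contralateral nerves. The groups overlapped on both days. Slc2a3 rose by 0.38 at 3 DPI (SE 0.13, adjusted p = 0.034) and differed by -0.06 at 7 DPI (SE 0.13, adjusted p = 0.79). Its 3 DPI call was lost without any 1 of contralateral replicates 2 and 3 and injured replicates 2 and 4 (adjusted p 0.073 to 0.13), and with all 8 contralateral arrays as control the difference was 0.17 (adjusted p = 0.39).

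Slc2a4 was 6.25, 6.81, 6.72 and 6.56 in injured nerves at 3 DPI, against 7.05, 6.84, 7.08 and 6.81 in contralateral nerves, and 6.58, 6.75, 6.73 and 6.77 in injured nerves at 7 DPI, against 7.34, 7.22, 7.01 and 6.85 in contralateral nerves. It fell by 0.36 (SE 0.12, adjusted p = 0.029) at 3 DPI and by 0.40 (SE 0.12, adjusted p = 0.018) at 7 DPI. Of the 12 adipocyte genes, 1 was lower in injured nerves at 3 DPI and 10 at 7 DPI. The contralateral 7 DPI arrays had the same order in Slc2a4 and in the mean of the adipocyte genes, whereas in the injured 7 DPI nerves replicate 1 had the highest adipocyte mean (7.47, against 6.79 to 6.91) and the lowest Slc2a4. The part of fat in the Slc2a4 change was not tested. The 7 DPI call was lost without contralateral 7 DPI replicate 1 or 2 or injured 7 DPI replicate 1 (adjusted p 0.053 to 0.066). Without both contralateral replicates 1 and 2, the arrays with the highest Slc2a4 of their group, so that the change had to shrink, it was -0.23 (adjusted p = 0.27). The 3 DPI call was lost without any 1 of contralateral replicates 1 and 3 and injured replicates 1 and 4 (adjusted p 0.062 to 0.11).

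In the later steps of glycolysis, Pgk1, the kinase that makes the first ATP of the pathway, rose with little spread between arrays. It was 10.43, 10.34, 10.31 and 10.51 in injured nerves at 3 DPI, against 9.36, 9.47, 9.54 and 9.51 in contralateral nerves, and 10.08, 10.12, 10.07 and 10.14 in injured nerves at 7 DPI, against 9.45, 9.54, 9.49 and 9.60 in contralateral nerves. Pgk1 rose by 0.93 (SE 0.06, 90.2% more, adjusted p = 6.6e-09) at 3 DPI and by 0.58 (SE 0.06, 49.8% more, adjusted p = 2.3e-06) at 7 DPI, with no overlap. Eno2, the enolase of neurons, was 9.68, 9.52, 9.84 and 9.91 in injured nerves at 3 DPI, against 9.95, 10.12, 10.03 and 10.09 in contralateral nerves, and 8.82, 8.95, 8.81 and 9.04 in injured nerves at 7 DPI, against 9.92, 9.93, 9.67 and 9.91 in contralateral nerves. The gap between the groups was narrow at 3 DPI and wide at 7 DPI. Eno2 fell by 0.32 (SE 0.09, 19.6% less, adjusted p = 0.012) at 3 DPI and fell by 0.95 (SE 0.09, 48.3% less, adjusted p = 4.2e-07) at 7 DPI. With all 8 contralateral arrays as control the 3 DPI call was lost (-0.22, adjusted p = 0.059).

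Gpi, the isomerase between hexokinase and phosphofructokinase, did not pass on either day (0.05 and -0.06, 95% intervals -0.09 to 0.19 and -0.20 to 0.09). The muscle forms of phosphoglycerate mutase and enolase, Pgam2 and Eno3, did not pass either, and both were highest in the array with the high skeletal muscle genes. There, in injured 7 DPI replicate 1, Eno3 was 8.0, against 5.53 to 6.0 in the other injured 7 DPI arrays, and Pgam2 was 7.87, against 6.84 to 7.23. Without that array, Pgam2 differed by -0.34 at 7 DPI (adjusted p = 0.044) and by -0.33 at 3 DPI (adjusted p = 0.029), where with it the differences were -0.14 (adjusted p = 0.59) and -0.33 (adjusted p = 0.14).

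Lactate dehydrogenase is a tetramer of A subunits (Ldha), which favour making lactate, and B subunits (Ldhb), which favour making pyruvate. Its genes moved in opposite directions. Ldha was 10.25, 9.86, 10.06 and 10.16 in injured nerves at 3 DPI, against 9.23, 9.16, 9.42 and 9.49 in contralateral nerves, and 9.74, 9.68, 9.50 and 9.72 in injured nerves at 7 DPI, against 9.50, 9.26, 9.28 and 9.36 in contralateral nerves. The injured arrays lay above the contralateral ones at 3 DPI, and at 7 DPI the lowest injured array and the highest contralateral array met. Ldha rose by 0.76 (SE 0.10, 69.4% more, adjusted p = 8.5e-06) at 3 DPI and by 0.31 (SE 0.10, 23.9% more, adjusted p = 0.021) at 7 DPI. The 7 DPI call was lost with cyclic loess scaling (0.21, adjusted p = 0.12) and without any 1 of contralateral replicates 2 and 3 and injured replicates 1 and 4 (adjusted p 0.055 to 0.063).

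Ldhb was 9.44, 9.39, 9.36 and 9.43 in injured nerves at 3 DPI, against 10.79, 10.88, 10.84 and 10.83 in contralateral nerves, and 9.32, 9.65, 9.72 and 9.60 in injured nerves at 7 DPI, against 10.68, 10.71, 10.67 and 10.69 in contralateral nerves. The injured and contralateral arrays were far apart on both days. Ldhb fell by 1.43 (SE 0.07, 62.9% less, adjusted p = 2.2e-10) at 3 DPI and fell by 1.12 (SE 0.07, 53.9% less, adjusted p = 5.7e-09) at 7 DPI. Rodent genomes hold retrocopies of Ldha, Pgk1 and other glycolysis genes, and signal from a near-identical copy cannot be told apart here, since the probe sequences were not used.

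Pyruvate dehydrogenase carries pyruvate into the tricarboxylic acid cycle, and the Pdk kinases switch it off by phosphorylating its alpha subunit, the product of Pdha1. Pdha1 averaged 10.32 ± 0.06 in injured and 10.67 ± 0.07 in contralateral nerves at 3 DPI, and 10.36 ± 0.11 in injured and 10.69 ± 0.06 in contralateral nerves at 7 DPI (SD, n = 4 each). It fell by 0.35 (SE 0.07, adjusted p = 5e-04) and 0.33 (SE 0.07, adjusted p = 0.0011), with no overlap of arrays on either day. Pdhb, the beta subunit, differed by 0.04 and -0.03 and did not pass.

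Of the 4 kinases, Pdk3 rose by 0.39 (SE 0.10, adjusted p = 0.0046) at 3 DPI and 0.51 (SE 0.10, adjusted p = 0.00063) at 7 DPI, without overlap of arrays. Pdk4, the kinase induced by fasting and lipids, had the widest spread between arrays of the kinases. It was 9.35, 8.69, 8.10 and 8.61 in injured nerves at 3 DPI, against 7.87, 7.57, 7.61 and 8.0 in contralateral nerves, and 7.63, 7.51, 8.30 and 8.15 in injured nerves at 7 DPI, against 7.52, 7.96, 7.70 and 8.25 in contralateral nerves. Pdk4 rose by 0.93 (SE 0.23, 90.0% more, adjusted p = 0.0049) at 3 DPI, where the groups did not overlap, and differed by 0.04 (SE 0.23, adjusted p = 0.92) at 7 DPI.

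Pdk2, the most widely expressed of the kinases, was 9.02, 8.97, 8.98 and 9.12 in injured nerves at 3 DPI, against 8.84, 8.73, 8.85 and 8.79 in contralateral nerves, and 8.99, 9.10, 8.88 and 9.16 in injured nerves at 7 DPI, against 8.87, 8.91, 8.70 and 8.77 in contralateral nerves. It rose by 0.22 on both days (SE 0.07 each, adjusted p = 0.026 and 0.027). Each of these calls was lost in 6 of the 26 alternatives, among them cyclic loess scaling (0.17 and 0.13, adjusted p = 0.095 and 0.21) and leaving out 1 array. At 3 DPI that array was contralateral replicate 2 or 4 or injured replicate 1 or 4, and at 7 DPI contralateral replicate 3 or 4 or injured replicate 2 or 4 (adjusted p up to 0.091). Pdk1 differed by 0.16 and -0.11 and did not pass on either day.

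The monocarboxylate transporters MCT1 (Slc16a1), the carrier that Schwann cells and perineurial cells of rodent nerve express, and MCT4 (Slc16a3), the carrier of strongly glycolytic cells, move lactate across the cell membrane. Slc16a1 was 9.91, 9.69, 10.29 and 10.12 in injured nerves at 3 DPI, against 10.67, 10.09, 10.25 and 10.58 in contralateral nerves, and 9.63, 9.72, 9.78 and 10.18 in injured nerves at 7 DPI, against 10.45, 10.80, 10.80 and 10.84 in contralateral nerves. The groups overlapped at 3 DPI and were apart at 7 DPI. Slc16a1 fell by 0.89 (SE 0.16, 46.2% less, adjusted p = 0.00025) at 7 DPI. At 3 DPI its difference was -0.40 (SE 0.16, adjusted p = 0.06), and it passed in 8 of the 26 alternatives, median centring and cyclic loess among them (adjusted p = 0.032 and 0.021), as well as without contralateral 3 DPI replicate 2, injured 3 DPI replicate 3 or injured 7 DPI replicate 4 (adjusted p 0.025 to 0.042). Slc16a3 was 6.89, 6.73, 6.72 and 6.65 in injured against 6.73, 6.48, 6.64 and 6.82 in contralateral nerves at 3 DPI, and 6.83, 6.56, 6.65 and 6.56 in injured against 7.16, 6.38, 6.72 and 6.89 in contralateral nerves at 7 DPI. Its groups overlapped and its differences of 0.08 (95% interval -0.19 to 0.35) and -0.13 (-0.41 to 0.14) did not pass.

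To ask whether isoforms of 1 step changed unequally, the difference between the log2 values of a pair of isoforms was taken within each array, and the mean of that difference in contralateral nerves was subtracted from its mean in injured nerves. Such a value shows unequal change and says nothing of which isoform is more abundant. Of 12 pairs listed, 7 were measured on both sides, which gave 14 exact permutation tests (two-sided, 4 against 4 arrays, 70 arrangements, smallest possible p = 0.0286). In 10 of the 14 tests the 2 groups were fully separated and p was 0.0286, the smallest the design allows (0.0400 after Benjamini-Hochberg adjustment over the 14 tests). These tests use the same values as the single-gene tests above, and Pfkl and Pfkp are both set against Pfkm. Where 1 gene of a pair was far apart between the groups and the other changed little, separation of the pair follows from the first gene. The 10 tests are therefore not separate findings.

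Within phosphofructokinase, Pfkl moved up against Pfkm by 1.99 (SE 0.11) at 3 DPI and 1.69 (SE 0.08) at 7 DPI, and Pfkp against Pfkm by 2.24 (SE 0.17) and 1.94 (SE 0.11). Within aldolase, Aldoc moved down against Aldoa by 2.34 (SE 0.12; difference -2.34) at 3 DPI and 1.97 (SE 0.12; difference -1.97) at 7 DPI. Within lactate dehydrogenase, Ldha moved up against Ldhb by 2.19 (SE 0.11, a 4.56-fold shift) at 3 DPI and 1.43 (SE 0.15, a 2.69-fold shift) at 7 DPI. All of these 8 tests gave the smallest p.

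The transporters and kinases moved less. Slc16a3 moved up against Slc16a1 by 0.48 (SE 0.17, exact permutation p = 0.0286) at 3 DPI and 0.76 (SE 0.29, exact permutation p = 0.0571) at 7 DPI. Slc2a4 against Slc2a3 gave -0.74 (SE 0.20, exact permutation p = 0.0286) at 3 DPI and -0.34 (SE 0.23, exact permutation p = 0.2286) at 7 DPI. Pdk4 against Pdk2 gave 0.71 (SE 0.27, exact permutation p = 0.0571) and -0.18 (SE 0.28, exact permutation p = 0.4571).

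**Figure D3:**
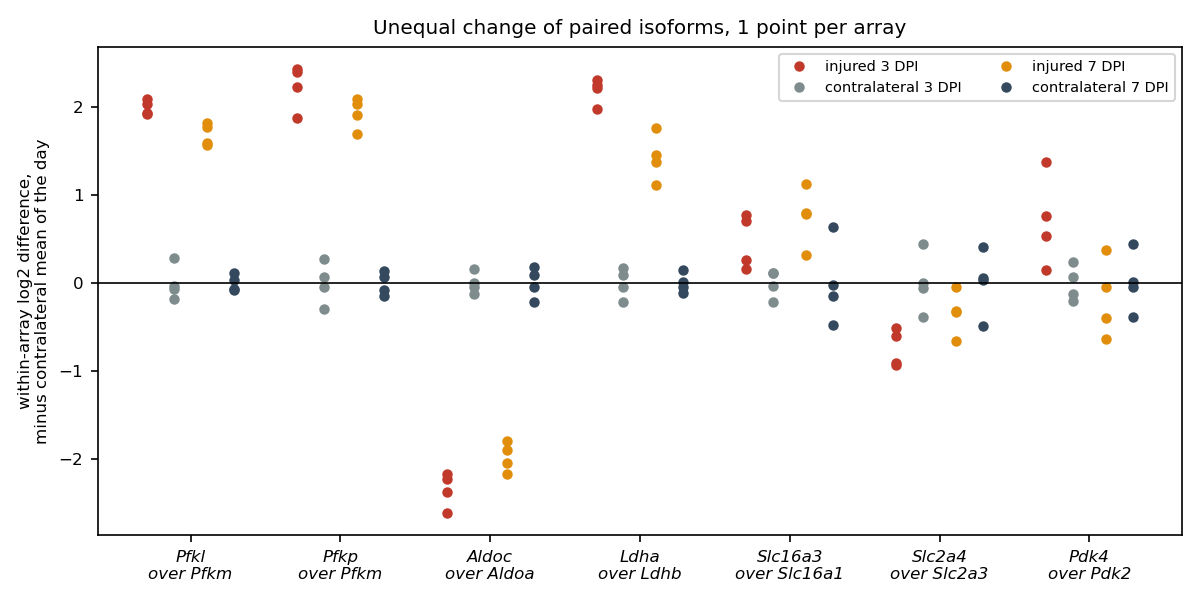
Within-array log2 difference of 7 isoform pairs, minus the contralateral mean of the same day, so that contralateral arrays centre on 0; each point is 1 array (n = 4 per group). Injured arrays of both days lie above all contralateral arrays for the phosphofructokinase and lactate dehydrogenase pairs and below them for Aldoc over Aldoa, and they mix with contralateral arrays at 7 DPI for the other 3 pairs.

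The next comparisons asked how the 2 days differ. The change from contralateral to injured nerve differed between the days in 1 of the 28 genes, Eno2, whose fall was larger at 7 DPI by 0.64 (difference -0.64, SE 0.13, adjusted p = 0.017). Over all genes, this difference was higher at 7 DPI in 0.771% and lower in 0.947%. Without contralateral 7 DPI replicates 1 and 2 the Eno2 difference was -0.57 (adjusted p = 0.10). A further 8 of the 28 genes had an unadjusted p under 0.05 (9 in all, against 2468 of the 18166 genes), with Pgk1 closest to the threshold (-0.34, SE 0.09, adjusted p = 0.071), followed by Ldha (-0.45, SE 0.14, adjusted p = 0.13). The Pgk1 difference passed with 4 of the alternatives (adjusted p 0.03 to 0.036), so that 2 genes passed there. Ldhb (0.31, SE 0.10, adjusted p = 0.18) passed without injured 7 DPI replicate 1, the array with the high skeletal muscle genes (0.39, adjusted p = 0.021). Pdk4 (-0.88, SE 0.33, adjusted p = 0.24) and Slc16a1 (-0.50, SE 0.22, adjusted p = 0.33) passed on 1 day each, and the difference between their days did not pass. The same holds for Pfkfb3 (-0.25, SE 0.18, adjusted p = 0.62) and Slc2a3 (-0.43, SE 0.18, adjusted p = 0.31).

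Between the injured nerves themselves, 3 genes were lower at 7 DPI than at 3 DPI and 0 were higher, where 2.23% of all genes were higher and 1.78% lower. With cyclic loess scaling the split over all genes was 348 higher and 442 lower, in place of 406 higher and 324 lower, and under it 4 of the 28 genes were lower and 0 higher. Eno2 fell by 0.83 (SE 0.09, adjusted p = 4e-05), Ldha by 0.42 (SE 0.10, adjusted p = 0.02) and Pgk1 by 0.29 (SE 0.06, adjusted p = 0.015), each without overlap of arrays. The Ldha call was lost without any 1 of injured 3 DPI replicates 1 and 4 and injured 7 DPI replicate 3 (adjusted p 0.062 to 0.071) and the Pgk1 call without injured 3 DPI replicate 4 (adjusted p = 0.056). With only the injured arrays in the fit, Eno2 alone passed. Pdk4 was 0.79 lower on average at 7 DPI (difference -0.79, SE 0.23, adjusted p = 0.072) and did not pass, but it passed without the dimmest 30% of genes (-0.79, adjusted p = 0.044) and, at the threshold, with cyclic loess scaling (-0.84, adjusted p = 0.05). Leaving out 1 array brought further genes past the threshold, which were Pdk4 without injured 3 DPI replicate 3 (-0.99, adjusted p = 0.028), Aldoc without injured 3 DPI replicate 4 (-0.36, adjusted p = 0.039) and Ldhb without injured 7 DPI replicate 1 (0.25, adjusted p = 0.029).

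The contralateral nerves also differed between the days in 1 gene. Aldoc was lower in contralateral nerves at 7 DPI than at 3 DPI by 0.56 (difference -0.56, SE 0.10, adjusted p = 0.036), without overlap of arrays, 1 of 13 genes (0.0716% of all) that passed in this comparison. That call was lost in 11 of 24 alternatives, among them leaving out contralateral 3 DPI replicate 2, 3 or 4, contralateral 7 DPI replicate 1, 2 or 3, injured 3 DPI replicate 2, or injured 7 DPI replicate 2 or 3 (adjusted p 0.053 to 0.12). In the same comparison the 12 adipocyte genes had a median difference of 0.71 with 0 passing, the 11 myelin genes one of -0.24 with 0 passing, and the 7 Schwann cell genes one of -0.32 with 0 passing. The 10 cell division genes had a median difference of 0.68, and 2 of them, Mki67 (0.95, adjusted p = 0.023) and Ccna2 (0.75, adjusted p = 0.048), were higher at 7 DPI. The part of these cells in the Aldoc difference was not tested. The 7 DPI changes from contralateral to injured nerve are measured against these arrays. Of the 2 glucose carriers among the 28 genes, Slc2a3 had the larger contralateral difference (0.40, SE 0.13, adjusted p = 0.25).

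**Figure D4:**
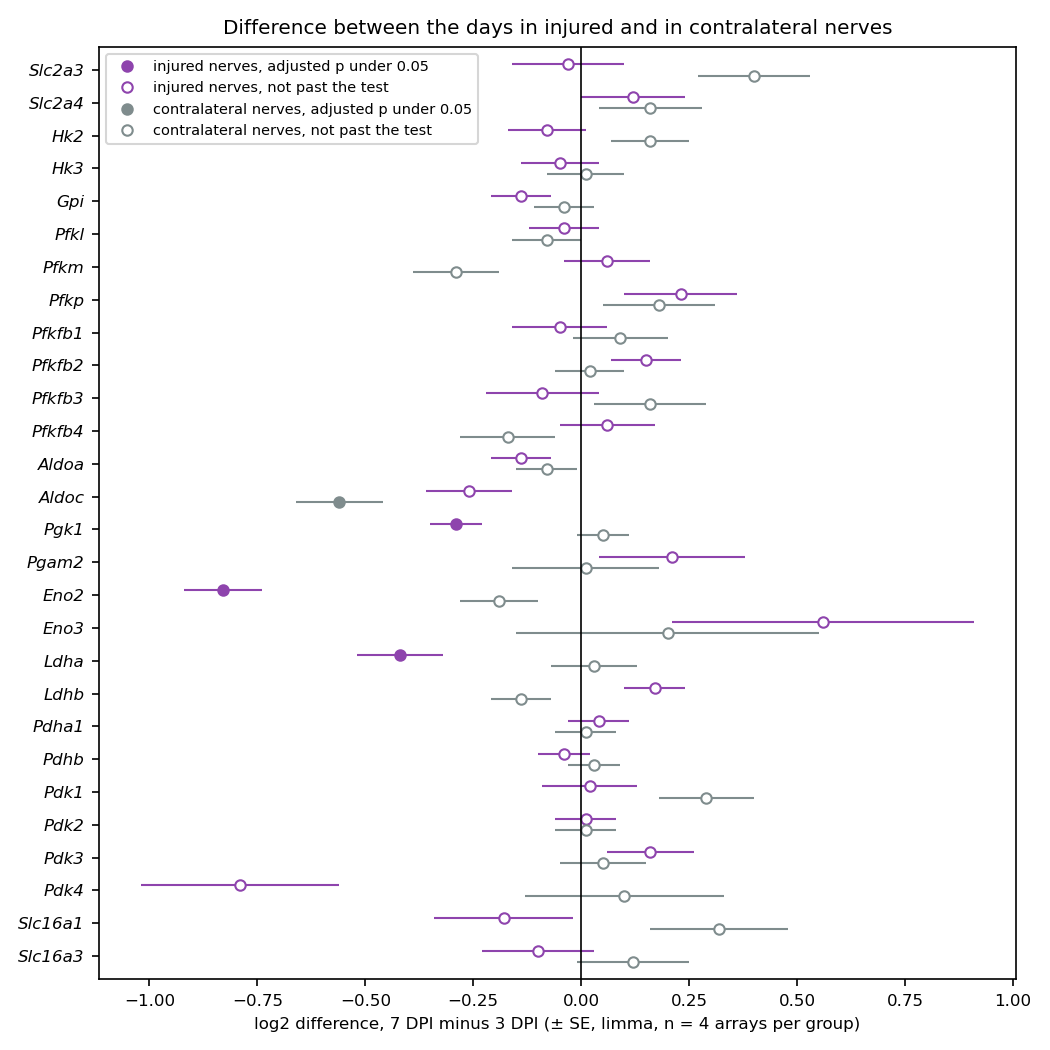
Log2 difference of the 28 genes, 7 DPI minus 3 DPI, in injured nerves (purple) and contralateral nerves (grey), in the order of the pathway. Points are limma estimates with their SE (n = 4 arrays per group), filled where the adjusted p is under 0.05: Eno2, Ldha and Pgk1 in injured nerves, and Aldoc in contralateral nerves.

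The pathways that branch off or follow glycolysis were counted from 9 gene lists. The counts stand beside 18.8% of all genes higher and 14.7% lower at 3 DPI, and 19.1% higher and 13.0% lower at 7 DPI, and several lie near these shares, such as the glycogen genes at 3 DPI (18.2% higher and 9.09% lower) and the tricarboxylic acid cycle at 7 DPI (3 of 15 genes each way). In the pentose phosphate pathway, 2 of 6 genes were higher and 1 lower in injured nerves at 3 DPI, and 1 higher and 2 lower at 7 DPI. Tkt, the transketolase, fell by 0.68 (SE 0.09, adjusted p = 1.5e-05) and 0.70 (SE 0.09, adjusted p = 1.4e-05). In glycogen metabolism, 2 of 11 were higher and 1 lower at 3 DPI, and 4 higher and 1 lower at 7 DPI. Pgm2 rose by 0.68 (SE 0.08) and 0.43 (SE 0.08), and Gyg1, the primer of glycogen chains, by 0.51 (SE 0.07) and 0.26 (SE 0.07). Pgm1 differed by 0.04 (SE 0.06, adjusted p = 0.68) at 3 DPI and rose by 0.47 (SE 0.06, adjusted p = 2.4e-05) at 7 DPI. Its injury effect differed between the days (0.43, SE 0.09, adjusted p = 0.023).

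The entry of pyruvate into mitochondria and the rest of the dehydrogenase complex held 2 lower genes of 8 at 3 DPI and 1 at 7 DPI, with 0 higher. Pdp2, the phosphatase that switches pyruvate dehydrogenase back on, fell by 0.66 (SE 0.08, adjusted p = 8e-06) and 0.63 (SE 0.08, adjusted p = 1.6e-05), and Mpc1, a subunit of the mitochondrial pyruvate carrier, fell by 0.27 (SE 0.08, adjusted p = 0.013) at 3 DPI. In the tricarboxylic acid cycle, 6 of 15 genes were higher and 3 lower at 3 DPI, and 3 higher and 3 lower at 7 DPI. The lower genes on both days were Suclg2, Sucla2 and Suclg1, the subunits of succinyl-CoA ligase, with changes from -0.45 to -0.19. Dlst, of the oxoglutarate dehydrogenase complex, rose by 0.59 (SE 0.08) and 0.36 (SE 0.08).

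The shuttles that return electrons of cytosolic NADH to mitochondria had 5 of 8 genes higher and 1 lower at 3 DPI, and 5 higher and 2 lower at 7 DPI, with medians of 0.30 and 0.32 against -0.01 and 0.00 over all genes. Gpd1, the cytosolic enzyme of the glycerol phosphate shuttle and a gene also rich in fat, fell by 2.05 (SE 0.19, adjusted p = 2.9e-07) at 3 DPI and fell by 1.91 (SE 0.19, adjusted p = 8.7e-07) at 7 DPI. The aspartate and glutamate carrier Slc25a13 rose by 0.69 (SE 0.10) and 0.40 (SE 0.10), and the oxoglutarate carrier Slc25a11 by 0.48 (SE 0.06) and 0.37 (SE 0.06). Among gluconeogenesis genes and other sugar kinases, 1 of 9 was higher and 1 lower at 3 DPI, and 1 higher and 2 lower at 7 DPI. The higher gene on both days was Bpgm, at 0.25 (SE 0.08) and 0.81 (SE 0.08). G6pc3 was the lower gene at 3 DPI (-0.33, SE 0.08, adjusted p = 0.0032), and Pck1 fell most at 7 DPI (-0.74, SE 0.16, adjusted p = 0.0021).

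Among the other glucose and monocarboxylate carriers and their chaperones, 5 of 15 were higher and 1 lower at 3 DPI, and 5 higher and 2 lower at 7 DPI. Emb, which encodes embigin, a chaperone that brings monocarboxylate transporters to the cell surface, rose by 2.34 (SE 0.16, adjusted p = 5e-09) at 3 DPI and 2.50 (SE 0.16, adjusted p = 3.6e-09) at 7 DPI. Bsg, which encodes basigin, the partner of MCT1 and MCT4, fell by 0.22 (SE 0.08, adjusted p = 0.045) and 0.32 (SE 0.08, adjusted p = 0.0067). Slc16a7, which encodes the high-affinity carrier MCT2, rose by 1.27 (SE 0.17, adjusted p = 1.2e-05) and 0.64 (SE 0.17, adjusted p = 0.0067). Slc2a1, which encodes GLUT1, the carrier of the barrier-forming perineurium and endothelium, differed by 0.35 at 3 DPI (SE 0.18, adjusted p = 0.15) and fell by 0.52 at 7 DPI (SE 0.18, adjusted p = 0.033).

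Targets of the hypoxia-inducible factors outside glycolysis were mixed, with 3 of 15 higher and 7 lower at 3 DPI (median -0.24) and 4 higher and 5 lower at 7 DPI (median -0.13). Ndrg1, a gene that myelinating Schwann cells also express strongly, fell by 1.50 (SE 0.09, adjusted p = 1.6e-09) and fell by 1.74 (SE 0.09, adjusted p = 3.8e-10), P4ha1, a collagen prolyl hydroxylase, fell by 0.67 (SE 0.06) and 0.50 (SE 0.06), and Adm, the peptide adrenomedullin, rose by 1.32 (SE 0.12, adjusted p = 2.9e-07) and 0.84 (SE 0.12, adjusted p = 5e-05). Among regulators of glucose metabolism, 6 of 21 were higher and 1 lower at 3 DPI, and 3 higher and 4 lower at 7 DPI. Hif1a, the inducible alpha subunit of the hypoxia factor, rose by 0.70 (SE 0.07, adjusted p = 7.9e-07) and 0.61 (SE 0.07, adjusted p = 4.4e-06), and Ppara, a regulator of fat oxidation, fell by 0.85 (SE 0.13) and 0.58 (SE 0.13). Epas1, which encodes HIF2 alpha and is rich in endothelium, fell by 0.98 at 7 DPI (SE 0.12, adjusted p = 9.7e-06), when 6 of 8 endothelial markers were lower, and the part of those cells in its change was not tested.

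**Figure D5:**
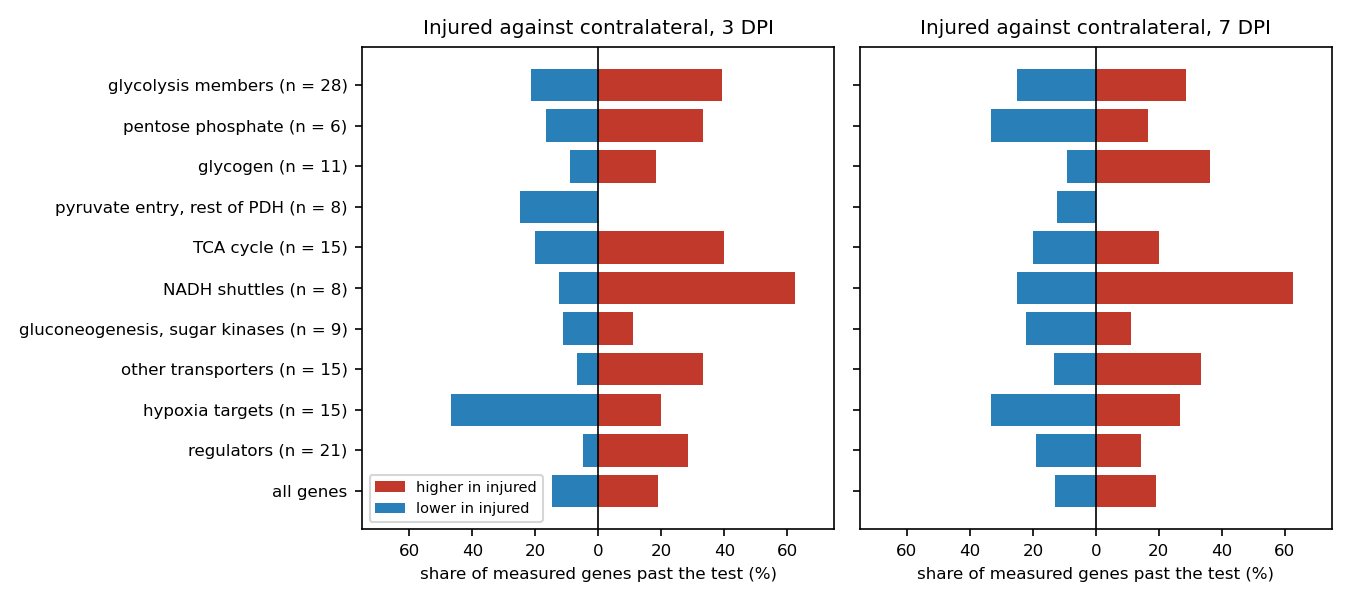
Share of measured genes that passed the test in the 28 glycolysis and lactate transport genes, in 9 neighbouring gene lists and in all 18166 genes, higher (red, to the right) or lower (blue, to the left) in injured than in contralateral nerves at 3 DPI (left panel) and 7 DPI (right panel). The lists hold 6 to 28 genes, so 1 gene is a large step. The NADH shuttle genes have the longest bar on the higher side, at 5 of 8 genes on each day, and the hypoxia targets the longest on the lower side at 3 DPI, at 7 of 15.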

How the data were processed

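Total RNA of 16 nerve samples was measured on the Rat Gene 2.0 ST array of Affymetrix, 1 biological replicate per array. The authors deposited log2 values made by RMA in the oligo package, which corrects background, applies quantile normalisation and combines the probes of each set (version not given in the sources used here); quantile normalisation removes a shift shared by most genes. No detection call was used, so a low value may be background, and precision is limited by the 4 arrays per group. Of 36685 probe sets, 18511 carried 1 symbol, 575 several and 17599 none; only those with 1 were used, and for 291 genes with more than 1 the probe set with the highest mean was kept, which left 18166 genes. Symbols come from the platform annotation, and 18394 of the identifiers were found in the RefSeq table for GRCr8, used for names. The array's own build is not named, so coordinates belong only to the RefSeq promoter windows.

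The 4 group means were fitted in 1 model over all 16 arrays with limma 3.58.1 in R 4.3.3 (lmFit, eBayes; 12 residual and 4.08 prior degrees of freedom), with Benjamini-Hochberg adjustment over 18166 genes and an adjusted p threshold of 0.05; changes of at least 2-fold were counted as well. The script was tested on simulated data. Isoform pairs were tested by exact permutation. The limma p-values set a mean difference against the spread between these arrays, which limma moderates over all genes. The exact permutation p-values place the observed difference among the possible arrangements of these arrays. Tables and plots used Python 3.11.15, pandas 2.3.3, scipy 1.17.1 and matplotlib 3.10.9.

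The members, gene lists and alternatives were chosen with earlier results of these data known. Array values are given for members that changed at least 2-fold, for isoform pairs and for Eno2 and Pgk1, and up to 3 passing genes with the largest changes are named per list; the array values of Eno2 and Pgk1, and Bsg, Suclg1 and Slc2a1 in the lists, lie outside that rule and were picked with their values known. The alternatives were a replicate block, only the groups compared, leaving out the dimmest 30% of genes, averaging probe sets, median centring, cyclic loess, trend and robust settings, array weights, pooled contralateral arrays, leaving out contralateral 7 DPI replicates 1 and 2, and leaving out each array in turn.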

Additional observations from a re-analysis of the deposited data

Results flagged for a closer look

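In 112 groups of 4 arrays (28 genes, 4 groups), 2 held an array whose gap to its nearest neighbour took up more of the group's whole range than Dixon's 95% critical value for 4 samples allows, where chance alone gives about 1 in 20. The measure is relative to the spread of the group and not to the size of the gap, so small gaps in tight groups can pass it. The gap was 0.912 of the range for Eno2 and 0.877 for Slc16a1, both in contralateral 7 DPI nerves. Eno3 in injured 7 DPI replicate 1, at 8.0 against 5.53 to 6.0, had a wider gap in log2 units but one of 0.81 of the range, which lay under the critical value. Eno2 was 9.67 in contralateral 7 DPI replicate 3, against 9.91 to 9.93 in the other contralateral 7 DPI nerves. Slc16a1 was 10.45 in contralateral 7 DPI replicate 1, against 10.80 to 10.84 in the others of that group. The injury effect on Eno2 differed between the days, being 0.64 lower at 7 DPI than at 3 DPI (difference -0.64, adjusted p = 0.017 in limma), with all 4 injured arrays below all 4 contralateral arrays on each day.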

How the results depend on the processing

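Of 37 calls of single genes, 24 held under every alternative that could be run for them, and 13 were lost in at least 1. Each call had 24 to 26 of these, out of 10 alternatives and 16 fits without 1 array. A further 9 results passed only under some alternative. Averaging probe sets left the values of the members as they were, since each had 1 probe set. A fit without an array of a group outside the comparison kept the log2 change and could alter only its spread and adjustment. Leaving out 1 array gave 13 to 18 passing genes at 3 DPI and 12 to 15 at 7 DPI, and 3 to 5 and 4 to 5 genes of at least 2-fold. The count for the difference between the days was 1 and became 2 without the dimmest 30% of genes, with cyclic loess, with trend and robust settings and with array weights, 0 without contralateral 7 DPI replicates 1 and 2, and 1 to 2 without 1 array. The count in injured 7 DPI against injured 3 DPI nerves was 3 and became 1 with only those groups in the fit, 4 without the dimmest 30% of genes and with cyclic loess, and 2 to 4 without 1 array. In contralateral 7 DPI against contralateral 3 DPI nerves it was 1 and became 0 with only those groups and without contralateral 7 DPI replicates 1 and 2, and 0 to 1 without 1 array. With all contralateral arrays as control, 3 isoform pairs that had not done so gave an unadjusted exact permutation p under 0.05. They were Slc16a3 over Slc16a1 at 7 DPI (0.66), Slc2a4 over Slc2a3 at 7 DPI (-0.47) and Pdk4 over Pdk2 at 3 DPI (0.66). Pooling allows more arrangements, and so a smaller lowest p than in the main pair tests. These p-values were not adjusted over the tests, so they cannot be set beside the adjusted values of the main pair tests. The sign of Pgam2 at 7 DPI, which did not pass, turned without 1 array (-0.34 to 0.00). Where a call was lost, the cause was not tested.

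The labels do not tie a replicate number to an animal, so the numbers were not taken as pairs. Deviations from the group means in same-numbered injured and contralateral nerves correlated at -0.06 to 0.223 at 3 DPI and -0.081 to 0.166 at 7 DPI. Differently numbered nerves were not set beside them, so these values cannot tell whether the nerves were paired. With the replicate block, 17 genes passed at 3 DPI and 16 at 7 DPI, against 17 and 15 without it. Pfkp (adjusted p = 0.051) and Slc2a4 (0.062) at 3 DPI were lost, and Pgam2 (0.018) and Slc16a1 (0.026) at 3 DPI and Pfkfb3 (0.045) at 7 DPI passed. Among all genes that passed at 3 DPI, 56.2% were higher in injured nerves, 47.6% with median centring and 51.2% with cyclic loess.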
